A study of Arabidopsis thaliana with 6 samples.

Results

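The abscisic acid signalling core is taken here as 10 Arabidopsis genes: the synthesis enzyme gene NCED3 (AT3G14440), the protein phosphatase genes ABI1 (AT4G26080), ABI2 (AT5G57050), HAB1 (AT1G72770), HAI1 (AT5G59220), HAI2 (AT1G07430) and HAI3 (AT2G29380), and the transcription factor genes ABI5 (AT2G36270), ABF3 (AT4G34000) and ABF4 (AT3G19290). They were chosen by name, not by a rule on their measured values, but with earlier results of these data known. They are 10 of the 32833 loci in the count tables, and the counts of all annotated isoforms of a locus were added. RNA was sequenced from Columbia seedlings of Arabidopsis thaliana grown on agar plates. The ethylene group germinated for 3 d in darkness with 0.7 ppm ethylene, the air group for 3 d in darkness without it, and both then spent 5 d in light without ethylene, with n = 3 libraries each. The comparison asks which transcripts differed when the gas had been gone for 5 d, and it cannot show when a difference arose. A log2 fold change is always ethylene minus air.

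Abscisic acid is a plant hormone made from carotenoids, known for closing stomata, for seed dormancy and for responses to drought. The hormone binds receptors of the PYR/PYL family, and the bound receptors inhibit the clade A type 2C protein phosphatases, the family of ABI1, ABI2, HAB1 and the HAI genes. These phosphatases otherwise hold the SnRK2 kinases inactive, and the released kinases phosphorylate basic leucine zipper transcription factors such as ABI5, ABF3 and ABF4. Those factors bind the abscisic acid response element, whose core is ACGTG, in the promoters of responsive genes.

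After ethylene, NCED3 was higher, ABI1 and ABF4 were lower, ABF3 and HAI2 were not called, and the other 5 members had too few reads to be tested. A locus was called at an adjusted p under 0.05 in edgeR's quasi-likelihood F-test with Benjamini-Hochberg adjustment over all 17887 loci tested, and the adjusted p-values below come from that fit. With 1 member higher and 2 lower among the 5 tested, the core stands against a background in which 32.6% of all tested loci were called, 15.8% higher and 16.8% lower. Libraries were also scaled on synthetic ERCC spike-in RNAs in place of TMM factors, which take most genes as unchanged. With spike-in scaling 2 members were higher and 0 lower by edgeR, also with 0 lower at an unadjusted p under 0.05. The background moved the same way, with 7160 of the 17887 tested loci higher and 829 lower. DESeq2 with its own size factors called 1 member higher and 2 lower. The median log2 fold change was 0.42 over the 5 tested members, which is the value of the uncalled HAI2, and 0.02 over all tested loci. Without ethylene replicate 3 the members' median was −0.37, so it gives no direction for the core. Plant counts ran from 12870604 to 17116359 per library, so 1 read corresponded to 0.0584 to 0.0777 CPM, the depth-scaled read count. The labels do not say whether replicates were grown separately, so each p-value reflects only how these 6 libraries vary, and that variation may be technical. In bulk RNA of whole seedlings, fewer cells that express a gene and less RNA per cell cannot be told apart.

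**Figure D1:**
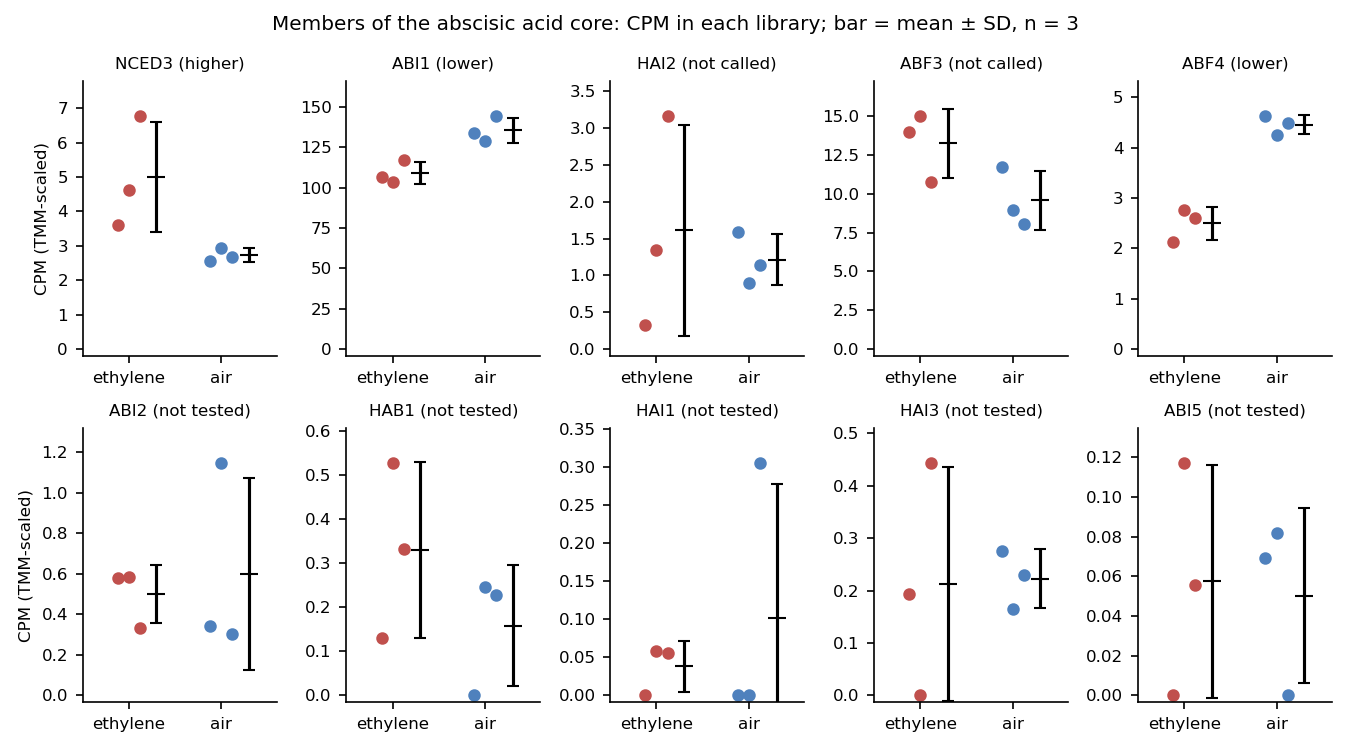
CPM of each member in the 3 ethylene and the 3 air libraries (vertical axes in CPM scaled with TMM factors, each with its own range that includes 0); points are libraries in replicate order, bars are mean ± SD, cut at the lower frame where they pass it. NCED3 lies at 3.61 to 6.76 CPM after ethylene, above all air libraries, and ABI1 and ABF4 lie below all air libraries after ethylene, while the other members overlap between the groups.

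NCED3 encodes a 9-cis-epoxycarotenoid dioxygenase, the enzyme of the rate-limiting cleavage step in abscisic acid synthesis and the main family member induced by drought. Its levels were 3.61, 4.63 and 6.76 CPM in ethylene replicates 1, 2 and 3, against 2.55, 2.95 and 2.67 CPM in air replicates 1, 2 and 3. All 3 ethylene libraries lay above all 3 air libraries, and ethylene replicate 3 was the highest. The groups did not overlap for 47.7% of all tested loci. The mean was 5.00 ± 1.61 CPM after ethylene and 2.72 ± 0.204 CPM in air (SD, n = 3 each), a log2 fold change of 0.88 ± 0.27 (SE, adjusted p = 0.0316 by edgeR). These levels rest on 56, 79 and 122 reads after ethylene, against 37, 36 and 35 reads in air. NCED3 lost its call on leaving out any library except ethylene replicate 1, with an edgeR adjusted p of 0.0183 to 0.140 and a log2 fold change of 0.60 to 1.06 over the 6 fits. Per kilobase of transcript, NCED3 stood at 1.83 ± 0.589 CPM after ethylene and 0.998 ± 0.0747 CPM in air.

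ABI1 encodes a clade A phosphatase that restrains the pathway when the hormone is absent. ABI1 measured 107, 104 and 117 CPM after ethylene, against 134, 129 and 144 CPM in air. Every ethylene library was below every air library. The mean was 109 ± 7.03 CPM after ethylene and 136 ± 7.81 CPM in air (SD, n = 3 each), a log2 fold change of −0.31 ± 0.08 (SE, edgeR adjusted p = 0.0161). Between 1574 and 2112 reads stood behind each of these values. Without ethylene replicate 2 the log2 fold change was −0.28 and was not called (edgeR adjusted p = 0.0694, against 0.0129 to 0.566 over all alternatives). With spike-in scaling, which moved the median of all loci to 0.47, ABI1 stood at 0.13, again below that median and not called. Per kilobase, ABI1 had 50.3 ± 3.24 CPM after ethylene and 62.6 ± 3.60 CPM in air, higher than NCED3, HAI2 and HAI3 in each of the 6 libraries. These 4 are the members with a single annotated isoform.

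HAI2 belongs to a subgroup of clade A phosphatases named for strong induction by abscisic acid. Its levels were 0.323, 1.35 and 3.16 CPM after ethylene, against 1.59, 0.901 and 1.14 CPM in air. The ethylene libraries spread on both sides of the air libraries, with replicate 1 the lowest and replicate 3 the highest of all 6. The log2 fold change was 0.42 ± 0.63 (SE, edgeR adjusted p = 0.654) and HAI2 was not called. Without ethylene replicate 3 it was −0.53, also not called.

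ABI2, HAB1, HAI1 and HAI3, the other phosphatase members, had too few reads for the test. ABI2, the closest relative of ABI1, had 9, 10 and 6 reads after ethylene, against 5, 14 and 4 reads in air. HAB1, also a negative regulator of the hormone response, had 2, 9 and 6 reads after ethylene, against 0, 3 and 3 reads in air. All of these groups overlapped. HAI1 had 0, 1 and 1 reads after ethylene, against 0, 0 and 4 in air. HAI3 had 3, 0 and 8 reads after ethylene, against 4, 2 and 3 in air. Without the filter on low counts, the unadjusted edgeR p was 0.724 for ABI2, 0.326 for HAB1, 0.475 for HAI1 and 0.954 for HAI3. A difference was not detectable with so few assigned reads. Per kilobase, HAI3 stood at 0.142 ± 0.149 CPM after ethylene and 0.149 ± 0.0376 CPM in air, and HAI2 at 0.845 ± 0.754 CPM after ethylene and 0.635 ± 0.182 CPM in air (SD, n = 3 each).

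Among the transcription factors, ABF4 was lower after ethylene and ABF3 was not called. Both encode basic leucine zipper factors that bind the abscisic acid response element in vegetative tissue. ABF4 measured 2.13, 2.75 and 2.605 CPM after ethylene, against 4.62, 4.26 and 4.50 CPM in air. All ethylene libraries lay below all air libraries. The mean was 2.50 ± 0.326 CPM after ethylene and 4.46 ± 0.184 CPM in air (SD, n = 3 each), a log2 fold change of −0.83 ± 0.22 (SE, edgeR adjusted p = 0.0174). The values rest on 33, 47 and 47 reads after ethylene, against 67, 52 and 59 reads in air. Without ethylene replicate 1 (edgeR adjusted p = 0.0547) or air replicate 1 (0.0542) ABF4 was no longer called, within a range of 0.012 to 0.311 over all alternatives, and its call also ended with spike-in scaling.

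ABF3 measured 14.0, 15.0 and 10.8 CPM after ethylene, against 11.7, 8.93 and 8.08 CPM in air. Ethylene replicate 3 lay below air replicate 1, so the groups overlapped. The mean was 13.2 ± 2.22 CPM after ethylene and 9.58 ± 1.91 CPM in air (SD, n = 3 each), a log2 fold change of 0.46 ± 0.19 (SE, edgeR adjusted p = 0.0908). ABI5, which holds back growth in germinating seeds and young seedlings under abscisic acid, had 0, 2 and 1 reads after ethylene, against 1, 1 and 0 reads in air. Its unadjusted edgeR p without the filter was 0.905, and no difference was detectable with so few assigned reads.

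The promoters of the 3 called members and of HAI2 are printed to show where the response element core lies. They are the 250 bases before the gene start in RefSeq's TAIR10.1 assembly, found by locus identifier because the count tables hold no coordinates and name no build. Each is written 5′ to 3′ on the strand of its gene, with every ACGTG, or its reverse complement CACGT, in capitals.
NCED3, chr3:4834016-4834265, minus strand: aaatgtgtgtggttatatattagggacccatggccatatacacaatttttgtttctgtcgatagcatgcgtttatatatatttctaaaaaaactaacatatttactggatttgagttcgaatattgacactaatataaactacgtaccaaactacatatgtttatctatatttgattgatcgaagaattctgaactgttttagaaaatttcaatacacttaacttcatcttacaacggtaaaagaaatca
ABI1, chr4:13222377-13222626, minus strand: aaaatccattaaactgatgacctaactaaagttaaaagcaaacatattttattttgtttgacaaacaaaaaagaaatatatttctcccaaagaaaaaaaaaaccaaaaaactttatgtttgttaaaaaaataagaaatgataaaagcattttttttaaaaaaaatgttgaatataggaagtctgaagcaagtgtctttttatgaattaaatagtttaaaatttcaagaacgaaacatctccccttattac
ABF4, chr3:6686792-6687041, plus strand: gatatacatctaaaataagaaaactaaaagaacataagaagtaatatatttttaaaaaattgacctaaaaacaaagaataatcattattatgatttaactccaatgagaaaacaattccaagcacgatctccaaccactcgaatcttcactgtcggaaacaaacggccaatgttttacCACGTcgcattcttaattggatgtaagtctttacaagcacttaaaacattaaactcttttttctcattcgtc
HAI2, chr1:2282829-2283078, minus strand: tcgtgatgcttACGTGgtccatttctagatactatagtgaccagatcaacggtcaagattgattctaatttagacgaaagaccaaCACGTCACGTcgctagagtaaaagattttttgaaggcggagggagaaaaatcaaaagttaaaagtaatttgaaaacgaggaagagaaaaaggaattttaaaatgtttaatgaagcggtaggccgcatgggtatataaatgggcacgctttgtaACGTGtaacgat

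The ACGTG core was searched on both strands, so that a CACGTG counts on each, and it occurred in 22.9% of 27443 protein-coding promoters of the same length. Of the 10 members, 6 held it. No core was found in the windows of NCED3, ABI1, ABI2 and HAI1. ABF4 held 1 match, 72 bases before the start, and ABF3 and HAB1 also held 1 each. HAI2 held 4 matches, those at 165 and 160 bases before the start being adjacent and in the same orientation (CACGTCACGT). HAI3 held 2 matches and ABI5 held 7, and over all promoters 8.84% held at least 2. The 3 called members thus include promoters without and with the core, and ABI5, the member with the most matches, had 5 reads in all 6 libraries together.

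Read counts of single isoforms varied with the sequence that isoforms share. The 10 members have 26 transcript identifiers in the count tables, all of which matched RefSeq transcripts, and 16 of them held any reads. NCED3, ABI1, HAI2 and HAI3 have a single isoform each, while the other 6 members share 22 isoforms. Sequence shared between isoforms was measured as the number of 50-base windows of a transcript that occur in no other annotated transcript. Of the 22 isoforms, 8 had at least 100 such windows, and all 8 held reads. Another 10 held no read in any library, and none of them had more than 79 such windows. Over all multi-isoform loci, 88.0% of 6043 transcripts with no specific window and 7.74% of 13279 transcripts with at least 100 had no read in any library. The levels of members with several isoforms are therefore not set against those of the others.

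**Figure D2:**
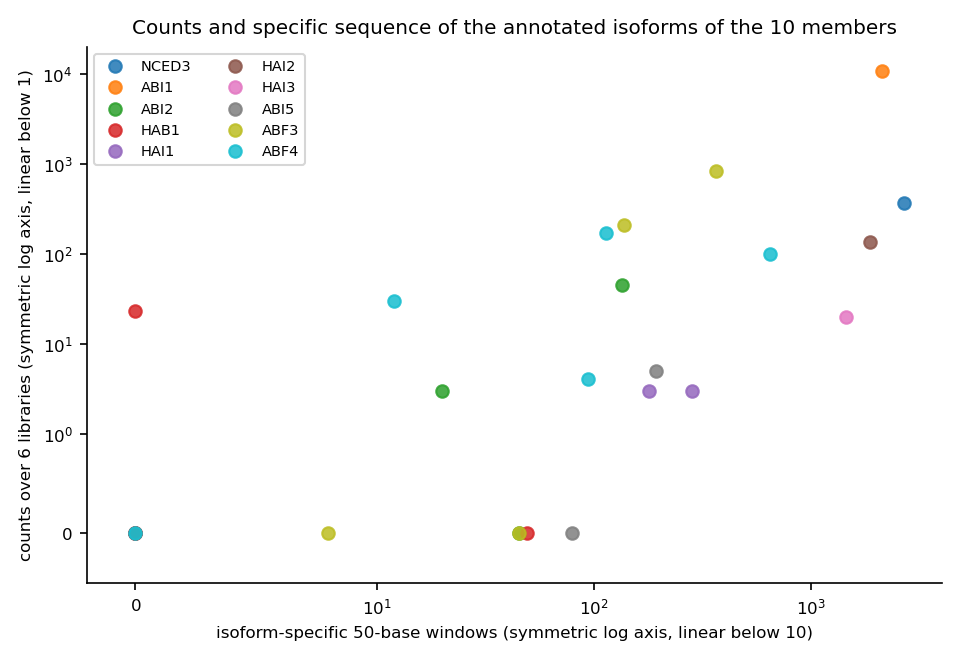
Reads summed over the 6 libraries (vertical axis, symmetric log) against the number of isoform-specific 50-base windows (horizontal axis, symmetric log) for the 26 annotated isoforms of the 10 members, 1 point each, coloured by gene. Points at 0 on both axes overlie each other for 5 isoforms; the isoforms at 0 reads lie at 79 windows or fewer.

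Of the 5 isoforms of HAB1, HAB1.2 held 23 reads over the 6 libraries, HAB1.1, HAB1.3, HAB1.4 and HAB1.5 held 0, and only HAB1.3 had any specific window, 49 of them. A low count for HAB1 is thus a low count of the reads assigned to these isoforms. ABI2.3, with 134 specific windows, held 24 reads after ethylene and 21 in air. ABI5.3, with 194 specific windows, held 3 reads after ethylene and 2 in air. HAI3, in which every window is specific, was also low, with 11 reads after ethylene and 9 in air.

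Fitted by transcript, 1 member transcript was higher (NCED3.1) and 1 was lower (ABI1.1), where 30.5% of 19123 tested transcripts were called, 14.9% higher and 15.6% lower. ABF4 was called as a locus but none of its isoforms was called alone. Of the windows of ABF4.3, 113 of 1854 were specific, and of those of ABF4.5, 648 of 1966. How reads of shared sequence were assigned is not stated, so the locus fold changes of ABF4 and ABF3 compare assigned reads only. ABF4.3 had 24, 30 and 19 reads after ethylene, against 40, 28 and 30 in air, which gave −0.75 on the log2 scale (edgeR adjusted p = 0.0930). ABF4.5 had 7, 11 and 22 reads after ethylene, against 18, 17 and 25 in air, which gave −0.94 on the log2 scale (edgeR adjusted p = 0.135). Neither isoform of ABF3 with reads was called, with log2 fold changes of 0.46 for ABF3.2 (edgeR adjusted p = 0.122) and 0.50 for ABF3.3 (0.319). The authors' deposited table, also by transcript, gives a log2 fold change of 0.88 with an adjusted p of 0.0262 for NCED3 and −0.31 with an adjusted p of 0.0167 for ABI1. The authors' deposited table gives −0.76 with an adjusted p of 0.156 for ABF4.3 and 0.46 with 0.131 for ABF3.2.

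Neighbouring genes on the opposite strand overlap 3 members, and no source used here says whether reads were counted by strand. ABF4 shares 2516 of its 3082 bases with AT3G03815, a locus with 89 reads in all 6 libraries, and the value of AT3G03815, −0.73 on the log2 scale, was not called (edgeR adjusted p = 0.413). Without strand, reads of ABF4 and AT3G03815 cannot be told apart, so the lower ABF4 value is uncertain in that respect. ABF4 also overlaps AT3G19300 by 6 bases, a locus with 703 reads that was higher after ethylene, at 0.70 on the log2 scale (edgeR adjusted p = 0.0223). ABI1 overlaps AT4G26070 by 22 bases and ABF3 overlaps AT4G34020 by 24 bases.

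The rest of the pathway was read from 71 further genes in 9 lists, of which 51 were tested, with 8 higher, 13 lower and 30 not called, beside 15.8% higher and 16.8% lower over all tested loci. Of these calls, NCED2, BGLU18 and PYL3 had fewer than 10 reads in every air library and RD29B fewer than 10 in every ethylene library. These 4 genes passed the filter on low counts only through the group where they were high. Such a filter favours genes that differ, so their calls are given only as a description. The median log2 fold change of the 51 was −0.05. The receptor list held the most calls: of 14 PYR/PYL genes 9 were tested, 6 were lower and 1 was higher, with a median of −0.51. With spike-in scaling 3 receptors were lower and 2 were higher, where 829 of all 17887 tested loci were lower and 7160 higher. Without air replicate 3, 2 receptors were higher. PYL5 had 55.8, 54.6 and 60.9 CPM after ethylene, against 126, 118 and 146 CPM in air. PYL7 had 13.1, 16.2 and 15.7 CPM after ethylene, against 38.3, 42.5 and 53.8 CPM in air. For both receptors the groups did not overlap, with log2 fold changes of −1.19 ± 0.10 for PYL5 (SE, edgeR adjusted p = 3.17e-05) and −1.58 ± 0.15 for PYL7 (6.17e-05). PYL4 fell to 178 ± 11.0 CPM after ethylene, against 253 ± 7.08 CPM in air, a log2 fold change of −0.51 ± 0.08 (SE, edgeR adjusted p = 0.000845). PYL6 fell to 42.3 ± 2.45 CPM after ethylene, against 75.7 ± 5.61 CPM in air (log2 fold change −0.84 ± 0.09, edgeR adjusted p = 0.000137). PYL8 and PYL9 were the other receptors called lower, with log2 fold changes of −1.14 and −0.45. PYL3 had 35, 33 and 35 reads after ethylene, against 5, 4 and 1 in air, a fitted log2 fold change of 2.98, and it dropped out at a mean count of at least 50. PYL3, PYL8 and PYL9 are named after their values were seen. PYR1 was not called, at −0.05. With spike-in scaling PYL4 and PYL6 were no longer called.

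**Figure D3:**
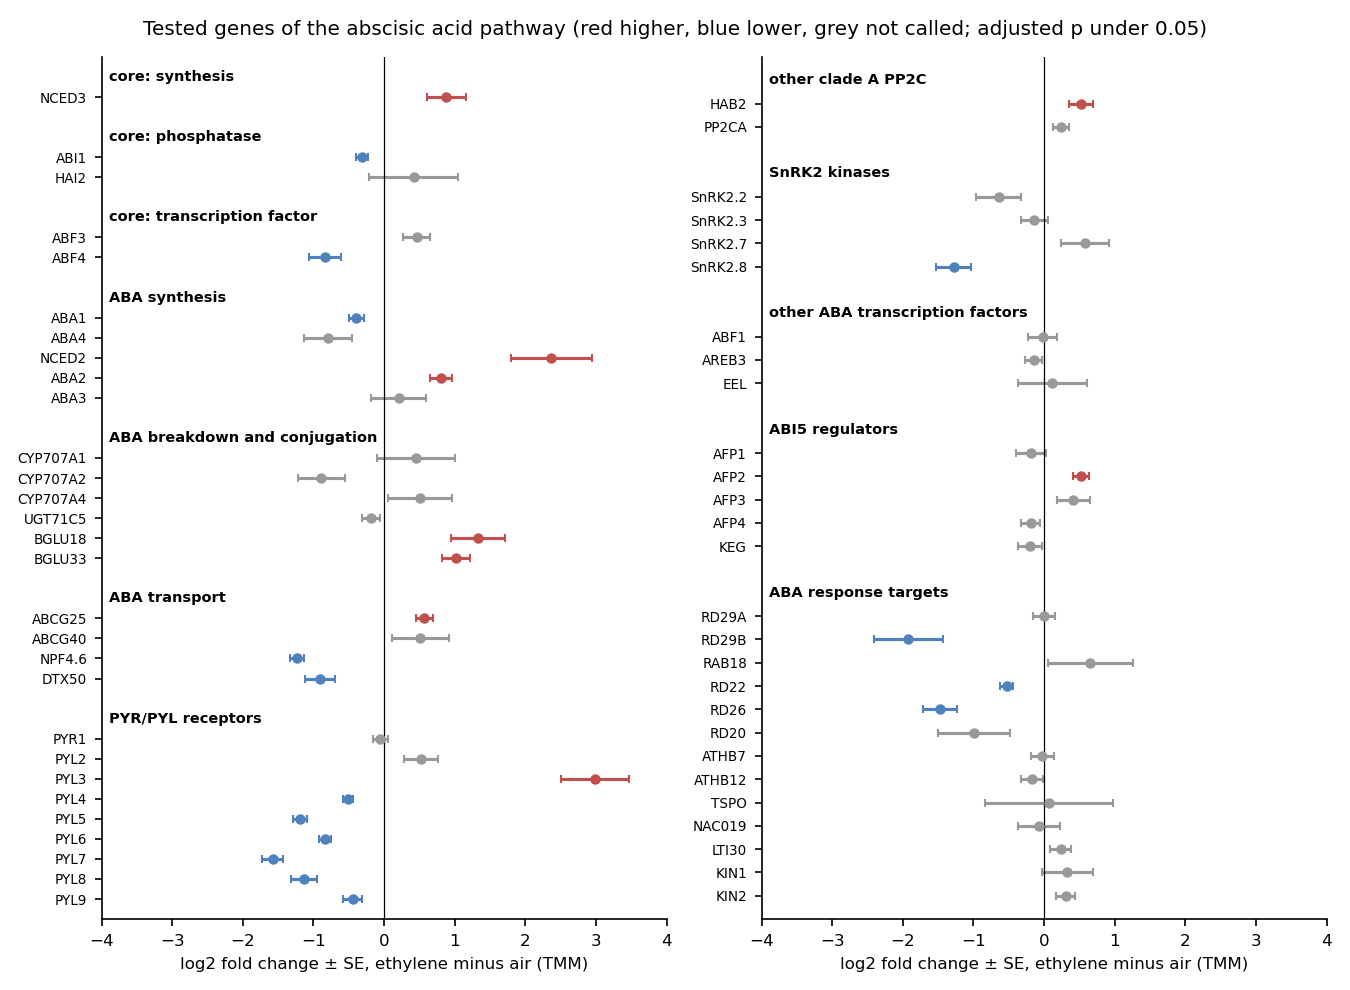
Log2 fold change, ethylene minus air, ± SE (horizontal axis) of the 5 tested members and the 51 other tested pathway genes, grouped by role; red marks genes called higher, blue genes called lower and grey genes not called. In the receptor list 6 of 9 tested genes lie to the left of 0 in blue and PYL3 lies at 2.98.

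Around NCED3, the synthesis list of 9 other genes had 5 tested, 2 of them higher and 1 lower. Over all tested loci 15.8% were higher and 16.8% lower. NCED2, a relative of NCED3, had 28, 24 and 14 reads after ethylene, against 5, 1 and 4 in air. It averaged 1.33 ± 0.520 CPM after ethylene and 0.244 ± 0.142 CPM in air (fitted log2 fold change 2.37 ± 0.57). NCED2 passed the filter on low counts only through the ethylene group, so its call is only a description. ABA2, a dehydrogenase that makes abscisic aldehyde, averaged 37.0 ± 8.65 CPM after ethylene and 21.1 ± 0.239 CPM in air (log2 fold change 0.81 ± 0.16, edgeR adjusted p = 0.00333). ABA1, the zeaxanthin epoxidase that acts before the dioxygenases, was lower. ABA1 averaged 76.9 ± 5.31 CPM after ethylene and 101 ± 13.5 CPM in air (log2 fold change −0.39 ± 0.11, edgeR adjusted p = 0.0184), and it stood at 0.057 with spike-in scaling, below the all-loci median of 0.47. Without ethylene replicate 1 or 3, ABA1 was not called.

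Of 8 genes for breakdown and conjugation 6 were tested, and 2 were higher, beside 15.8% higher and 16.8% lower over all tested loci. Both of these genes encode beta-glucosidases that release abscisic acid from its glucose ester. BGLU33 had a log2 fold change of 1.02 ± 0.20 (SE, edgeR adjusted p = 0.00376) and BGLU18 a fitted one of 1.33 ± 0.39. The reads of BGLU18 were 34, 26 and 23 after ethylene, against 9, 9 and 8 in air. BGLU18 passed the filter on low counts only through the ethylene group, so its call is only a description. Leaving out ethylene replicate 1 or 2 or air replicate 1 or 3 ended the call of BGLU18. UGT71C5, which makes the glucose ester, was not called at −0.18. All 4 transport genes were tested. NPF4.6, an importer of abscisic acid that also carries nitrate, had 123.5, 129 and 136 CPM after ethylene, against 298, 273 and 344 CPM in air, a log2 fold change of −1.24 ± 0.10 (SE, edgeR adjusted p = 2.56e-05). The exporter gene DTX50 was lower, at −0.91 ± 0.21 (edgeR adjusted p = 0.00823), and the exporter gene ABCG25 was higher, at 0.57 ± 0.12 (0.00587). The call of DTX50 ended with spike-in scaling.

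For the next lists too, the background was 15.8% of all tested loci higher and 16.8% lower. Of the 3 other clade A phosphatase genes 2 were tested. HAB2, the closest relative of HAB1, averaged 11.0 ± 1.08 CPM after ethylene and 7.64 ± 1.14 CPM in air (SD, n = 3 each), a log2 fold change of 0.53 ± 0.17 (SE, edgeR adjusted p = 0.0394). That call ended without ethylene replicate 2 or 3 or air replicate 2 or 3 (edgeR adjusted p of 0.0446 to 0.127 over the 6 fits). PP2CA was not called at 0.24. Of 5 SnRK2 kinase genes 4 were tested and SnRK2.8 was lower, at −1.28 ± 0.25 (edgeR adjusted p = 0.00335), while SnRK2.3 was not called at −0.14. Of 7 other transcription factor genes 3 were tested and none was called by edgeR or by DESeq2, with 0 of the 3 at an unadjusted edgeR p under 0.05, and AREB3 stood at −0.14. Among 5 genes that act on ABI5 protein, AFP2 was higher, at 0.52 ± 0.11 (edgeR adjusted p = 0.00582), and AFP4 was not called, at −0.19.

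Of 16 response genes that serve as targets of the pathway, 13 were tested, 3 were lower and none was higher by edgeR. With spike-in scaling 2 were lower and 4 were higher, where 829 of all 17887 tested loci were lower and 7160 higher. With TMM factors 16.8% of all tested loci were lower and 15.8% higher. At an unadjusted p under 0.05, 0 response genes were higher by edgeR and 1 by DESeq2, which called 0 of them higher after adjustment. RD26, a NAC transcription factor gene induced by dehydration, had 4.52, 5.10 and 5.65 CPM after ethylene, against 13.0, 10.2 and 19.4 CPM in air, a log2 fold change of −1.48 ± 0.24 (SE, edgeR adjusted p = 0.00127). RD22, a gene induced by dehydration and abscisic acid, averaged 569 ± 33.9 CPM after ethylene and 823 ± 70.0 CPM in air (log2 fold change −0.53 ± 0.09, edgeR adjusted p = 0.00125). RD29B, whose promoter is a classic example of control through the response element, stood at a fitted −1.92 ± 0.49 (SE). Its call ended without ethylene replicate 1 or 2 or air replicate 1. Spike-in scaling ended the call of RD22. RD29B rests on 4, 4 and 7 reads after ethylene, against 23, 13 and 10 in air. RD29B, 1 of the 3 lower genes, passed the filter on low counts only through the air group, so its call is only a description. The median of the 13 was −0.02. Without ethylene replicate 3, 5 response genes were lower and the median was −0.28, without ethylene replicate 1 or 2 there were 2 lower, and without air replicate 1 there were 2 lower and 1 higher. In promoter windows of 250 bases the ACGTG core occurred in 10 of the 16 response genes and in 4 of the 14 receptors, beside 22.9% of protein-coding promoters. It occurred in 3 of 3 other clade A phosphatase genes, 3 of 5 ABI5 regulators and 2 of 4 transport genes. The other lists held it in 3 of 9 synthesis, 3 of 8 breakdown and conjugation, 2 of 5 kinase and 2 of 7 transcription factor genes. A link to the fold changes was not tested.

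With spike-in scaling, the median over all loci stood at a log2 fold change of 0.47, against 0.02 with TMM factors, and the values below are to be read against that shift. No source used here states the amount of spike-in RNA or the step at which it was added. Under this scaling NCED3 stood at 1.30 (edgeR adjusted p = 0.000227) and ABF3 was called, at 0.93 (0.000651, against 0.000651 to 0.260 over all its alternatives). ABI1 stood at 0.13 and ABF4 at −0.39, and neither was called. Spike-ins made up 1.51% to 1.98% of all counts in the ethylene libraries and 1.98% to 2.23% in the air libraries.

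**Figure D4:**
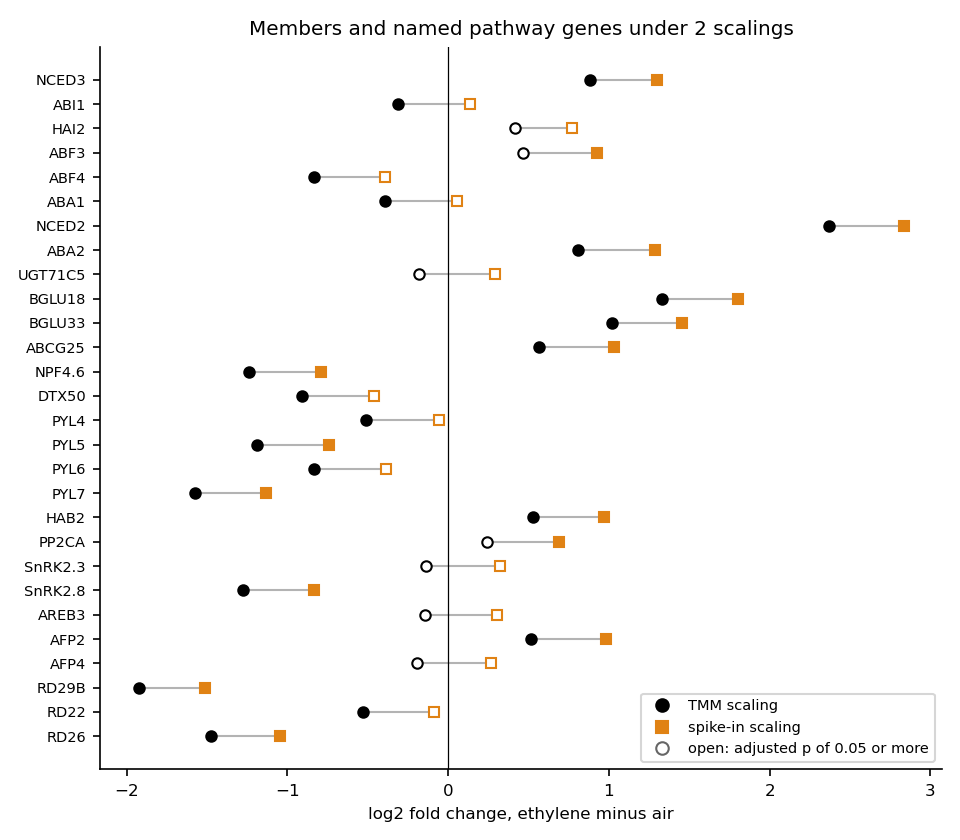
Log2 fold change, ethylene minus air (horizontal axis), of the 5 tested members and the named pathway genes with TMM factors (black circles) and with spike-in scaling (orange squares); filled symbols have an adjusted p under 0.05. All loci move to a median of 0.47 with spike-in scaling, ABI1 moves to 0.13 and ABF3 becomes called at 0.93 with spike-in scaling.

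Markers of organs and cell types differed between the groups beside these results. Over all tested loci 15.8% were higher and 16.8% lower. Summed CPM of 5 xylem markers was 169 to 213 after ethylene and 79.3 to 104 in air, with 5 of 5 higher. Summed CPM of 4 green leaf markers was 25748 to 27346 after ethylene and 36628 to 39297 in air, with 2 of 4 lower (CAB1 and LHCA1). CAB1 alone gave a mean of 17638 CPM after ethylene and 27686 CPM in air. RBCS1A and RCA overlapped between the groups and were not called. The sum of 7 guard cell markers was 198 to 207 CPM after ethylene and 127 to 132 CPM in air, with 2 higher (TGG1 and KAT1) and 1 lower (GC1). TGG1 alone gave 165 CPM after ethylene and 93.7 CPM in air, while FAMA, MYB60, GC1, SLAC1 and HT1 had log2 fold changes of −0.44, −0.28, −0.78, −0.44 and −0.13. The sum of 7 root markers was 201 to 222 CPM after ethylene and 138 to 191 CPM in air, with 2 higher. SCR went the other way, at a log2 fold change of −0.18 and not called, while the other root markers had positive values. For 3 phloem markers the sum was 198 to 223 CPM after ethylene and 147 to 170 CPM in air, with 1 of the 2 tested higher (SEOR1). SUC2 alone gave a mean of 141 CPM after ethylene and 120 CPM in air and was not called. The part of these organs and cell types in the values of NCED3, ABI1 and ABF4 was not tested. Of 8 seed and embryo markers none passed the filter, OLEO1, CRA1, CRU3 and SESA3 were at 0 in all libraries, and the sum was at most 0.410 CPM after ethylene and 0.737 CPM in air.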

How the data were processed

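RNA was extracted with Trizol, enriched for messenger RNA, fragmented and randomly primed, per the labels' protocols. For each of the 6 libraries the authors deposited a table of whole read counts by transcript. They also deposited a table with log2 fold changes and p-values per transcript and a normalized signal per library, per the file headers; in it the names of air replicates 1 and 3 are exchanged relative to the count tables. No source used here names the aligner or the counter, the build used or whether strand was read.

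Counts of 54013 plant transcripts were added to 32833 loci, including 325 identifiers written in lower case. The 92 ERCC spike-ins stayed out of library sizes and tests. The test was edgeR 4.0.16 (R 4.3.3), quasi-likelihood, with TMM factors, filterByExpr defaults (minimum count 10, minimum total 15), group alone as the design and Benjamini-Hochberg adjustment. It was also run on simulated counts with the same spread set for every locus, which cannot show how it performs on these libraries. CPM values are TMM-scaled. DESeq2 1.42.0, other scalings and filters, the replicate number as a block and leaving out each library were alternatives. No 2 libraries of a group agreed within sampling noise (chi-square per degree of freedom of 5.34 to 29.0). An exact permutation test of 3 against 3 cannot go below 0.1, so single values rest on the fit across loci.

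The members and lists were chosen with earlier results of these data known. All members are named, and of each other list up to 4 called genes with the smallest p and the gene with the highest mean CPM. Windows and promoters were read from RefSeq TAIR10.1, which holds 53219 of the 54013 identifiers.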

Additional observations from a re-analysis of the deposited data

How the results depend on the processing

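The calls on the members, 1 higher and 2 lower, were the same in number with RLE factors, upper-quartile factors, DESeq2, no filter on low counts and the replicate number as a block. With spike-in scaling 2 members were higher and 0 lower, 7160 loci were higher and 829 lower, 16 other pathway genes were higher and 7 lower, and 3 member transcripts were higher and 0 lower. At an adjusted p under 0.01 edgeR called 0 members higher and 0 lower (2 and 2 at an unadjusted p under 0.05, in edgeR and in DESeq2), 1416 loci higher and 1941 lower, and 5 other pathway genes higher. With a mean count of at least 50 there were 5 other pathway genes higher. Leaving out 1 library at a time gave 0 to 1 members higher and 1 to 2 lower, 0 to 1 member transcripts higher and 0 to 1 lower, 1978 to 2845 loci higher and 2383 to 3058 lower, and 6 to 9 other pathway genes higher and 10 to 14 lower. Spike-in scaling moved the median of all loci to 0.47, against 0.02 with TMM factors, and with that common shift the sign turned for ABI1 (0.13), ABA1 (0.057), UGT71C5 (0.29), SnRK2.3 (0.32), AREB3 (0.30) and AFP4 (0.27), and without ethylene replicate 3 for HAI2 (−0.53, within −0.53 to 0.88 over the 6 fits that leave out 1 library), where the library left out is the highest. Deviations of same-numbered libraries from their group means correlated at 0.03, −0.07 and 0.14, so the numbers were not taken as pairs. With the replicate block, edgeR called 2767 loci higher and 2807 lower, 7 other pathway genes higher and 13 lower, and HAB2 was not called (adjusted p = 0.0677). Few assigned reads limit ABI2, HAB1, HAI1, HAI3 and ABI5, none of which exceeded 14 reads in a library.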

Other observations

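After the values were seen, ethylene replicate 3 was found to be the highest of the 3 ethylene libraries for 3 of the 5 tested members and for 11 of the 13 tested response genes (84.6%), against 31.2% of all tested loci. RAB18, a dehydrin gene induced by abscisic acid, had 2.13, 5.10 and 17.8 CPM in ethylene replicates 1, 2 and 3, against 7.24, 3.85 and 4.80 CPM in air replicates 1, 2 and 3. It was not called, with a log2 fold change of 0.66 ± 0.60 (SE, edgeR adjusted p = 0.445), and it is named after its values were seen. NCED3, ABI1 and HAI2 were the members highest in ethylene replicate 3. The response genes share these libraries and are not independent of each other, and no difference between libraries of a group was tested.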
